A study of Homo sapiens with 2 samples.

Results

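DEPDC1, its paralog DEPDC1B, the zinc finger gene ZNF224 and the A20 gene TNFAIP3 were examined in Huh-7, an established cell line from a human hepatocellular carcinoma, after transfection with siRNA against DEPDC1. The 4 genes were taken by name, through the gene symbol that the platform annotation gives to each probe set. All 4 were among the 18417 genes that had at least 1 probe set to themselves, and each had exactly 1. The study held 2 expression arrays of total RNA. The control array measured cells that received NC, named in the labels only by that abbreviation and as control. The second array measured cells that received DEPDC1 siRNA. Both cultures were harvested at 72 h. The labels name no other treatment for either group. Neither the sequence nor the number of the siRNAs is given in the sources used here, and whether an siRNA also matches DEPDC1B was not tested. Since a group is a single array, labelled biological rep1, no difference can be set against a spread and no p-value is given.

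DEPDC1 and DEPDC1B encode proteins with an N-terminal DEP domain and a RhoGAP-like domain, and both transcripts are known from dividing cells, in which they are expressed in G2 and mitosis. DEPDC1 protein is known from bladder cancer cells to bind the KRAB zinc finger protein ZNF224, and the pair was described there as a repressor of TNFAIP3. TNFAIP3 encodes A20, a ubiquitin-editing enzyme that limits NF-kB signalling and is itself induced by NF-kB. The comparison places these transcripts beside each other after DEPDC1 depletion in a liver cancer line.

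The bases before the start of 3 of the genes are shown first, because DEPDC1 and DEPDC1B are read below with the G2 and mitosis genes and TNFAIP3 with the NF-kB targets. They are the 250 bases upstream of the RefSeq start (GRCh38.p14), 5′ to 3′ on the gene's own strand. In the first pair, capitals mark the CCAAT box (CCAAT) and the cell cycle homology element (CHR, TTTGAA or TTTAAA), elements known from promoters of mitotic genes. In the promoter of TNFAIP3, capitals mark matches to a wide NF-kB site pattern, GGG and CC with 5 bases of any kind between them. All motifs were searched on both strands, and overlapping matches run together as 1 stretch of capitals.
DEPDC1 (chr1:68497083-68497332, minus strand): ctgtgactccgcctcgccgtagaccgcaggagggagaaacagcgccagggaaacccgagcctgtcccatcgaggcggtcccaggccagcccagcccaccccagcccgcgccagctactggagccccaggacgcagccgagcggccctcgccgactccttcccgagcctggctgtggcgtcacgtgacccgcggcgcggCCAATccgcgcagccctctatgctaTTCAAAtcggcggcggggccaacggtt
DEPDC1B (chr5:60700167-60700416, minus strand): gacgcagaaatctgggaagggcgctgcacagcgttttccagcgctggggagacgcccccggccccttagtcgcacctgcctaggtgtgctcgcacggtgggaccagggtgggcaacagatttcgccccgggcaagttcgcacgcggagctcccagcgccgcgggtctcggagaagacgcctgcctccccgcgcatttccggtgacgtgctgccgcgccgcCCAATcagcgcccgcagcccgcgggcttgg
TNFAIP3 (chr6:137867009-137867258, plus strand): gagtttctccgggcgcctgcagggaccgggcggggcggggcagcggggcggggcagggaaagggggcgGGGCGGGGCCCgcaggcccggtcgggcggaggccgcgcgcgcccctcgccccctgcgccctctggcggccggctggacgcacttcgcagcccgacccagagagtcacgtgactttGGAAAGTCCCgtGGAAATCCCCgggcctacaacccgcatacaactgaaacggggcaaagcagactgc

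The DEPDC1 promoter held a CCAAT box that began 52 bases before the start and a CHR on the opposite strand that began 27 bases before it. In DEPDC1B the CCAAT box began 30 bases before the start. Its CHR lay just past the start, from base 3 of the transcript on, and so outside the stretch shown. A match is a description of the letters and not a measured binding site. Both promoters were rich in G and C, at 70.8% in DEPDC1 and 70.4% in DEPDC1B, against a median of 58.0% over 27305 promoters. In the 300-base window that adds the 50 bases past the start, a CHR was found in 24.3% of all promoters and a CCAAT box in 35.7%.

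The 4 genes did not move alike. DEPDC1, the siRNA target, was furthest below its NC value, DEPDC1B and TNFAIP3 were each a little under 2-fold lower, and ZNF224 differed little. At a threshold of 2-fold, 1 of the 4 genes was lower, DEPDC1 itself, where 0.863% of the 11352 detected genes were. None of the 4 was at least 2-fold higher, against 1.94% of detected genes. At 1.5-fold, 3 of the 4 were lower, against 3.74% of detected genes, and none was higher, against 6.03%. Detected genes are those with a value of at least 4.66 on the log2 scale, the median of all probe sets, in either array. This limit is a convention and no measured background.

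DEPDC1 measured 7.82 under NC and 5.15 under the siRNA, on the log2 scale of the deposited values. The siRNA array was thus lower by a log2 difference of -2.67, or 6.37-fold, and its signal was 15.7% of that in the NC array. DEPDC1 ranked 2 from the lowest difference, both among the 11352 detected genes and among all 18417 genes. Of the 500 detected genes nearest to it in mean level, none had a difference as low, the lowest of them being -1.35. The siRNA value still lay 0.49 above the detection threshold. The label of the siRNA array was thus borne out by its target.

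DEPDC1B measured 7.73 under NC and 6.78 under the siRNA. Its log2 difference of -0.95 was 1.93-fold lower, and it ranked 117 from the lowest among detected genes. Of the 500 genes of like mean level, 4 had a difference at or below that of DEPDC1B. The difference of DEPDC1 minus that of DEPDC1B was -1.73 on the log2 scale.

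TNFAIP3 measured 5.63 under NC and 4.66 under the siRNA. The difference of -0.97 on the log2 scale means that it was 1.96-fold lower. It ranked 109 from the lowest among detected genes, 8 places from DEPDC1B. Of the 500 genes of like mean level, 3 had a difference at or below it. Its siRNA value lay only 0.0065 above the detection threshold. There background can compress a difference and noise can shift it either way, so this fold is uncertain.

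ZNF224 measured 5.14 under NC and 5.36 under the siRNA. Its log2 difference of 0.22 corresponds to 1.16-fold higher, and 75.8% of detected genes had a lower difference. A difference of that size or larger in either direction was seen in 44.4% of detected genes. It thus lay within the bulk of the genes, unlike those of DEPDC1B and TNFAIP3, whose sizes were reached by 3.31% and 3.06%.

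**Figure D1:**
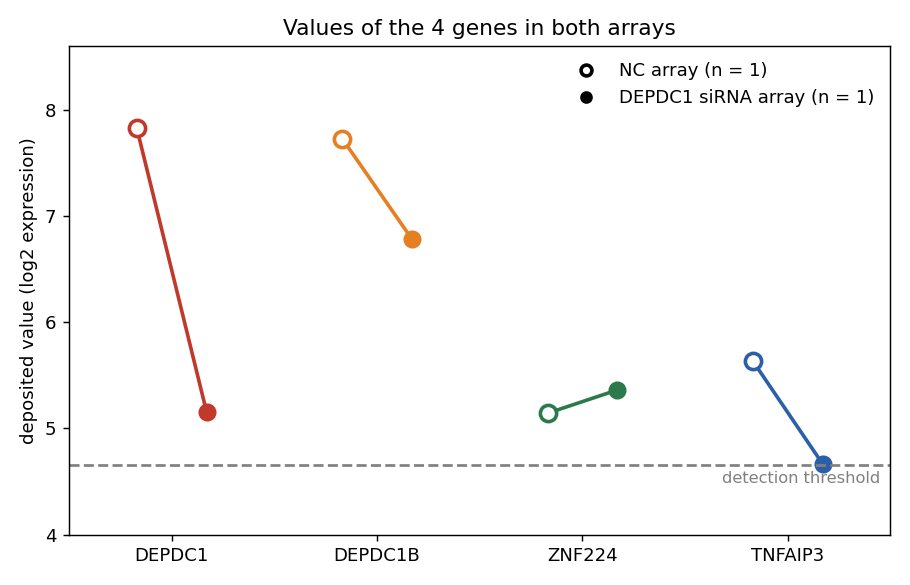
Deposited log2 values (vertical axis) of DEPDC1, DEPDC1B, ZNF224 and TNFAIP3 in the NC array (open circles) and the DEPDC1 siRNA array (filled circles), 1 array each, with the detection threshold of 4.66 as a dashed line. DEPDC1, DEPDC1B and TNFAIP3 were lower in the siRNA array and ZNF224 was slightly higher; levels of different probe sets cannot be set against each other.

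As a gauge of measurement noise, 444 genes with several detected probe sets were used. The range of the differences within a gene had a median of 0.0866 and a 90th percentile of 0.413 on the log2 scale. The differences of DEPDC1, DEPDC1B and TNFAIP3 were larger than that percentile, and that of ZNF224 was smaller. The gauge covers the array only, was not matched for level, and says nothing of the spread between cultures. Probe sets of a gene were read on the same arrays, so the gauge may understate noise.

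**Figure D2:**
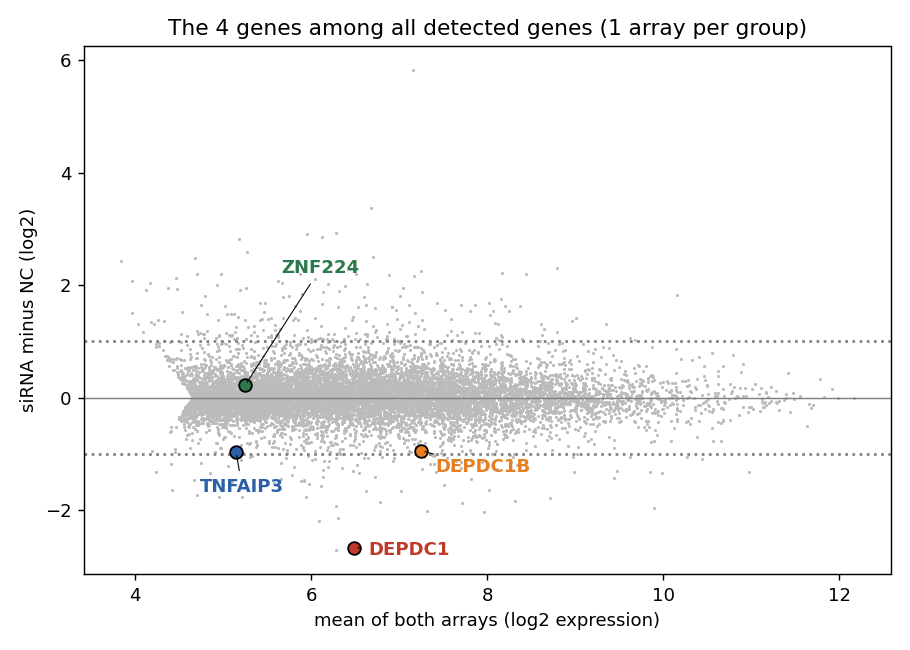
Difference between the siRNA and NC arrays (log2, vertical axis) against the mean of both arrays (log2 expression, horizontal axis) for the 11352 detected genes, with the 4 genes as large points and dotted lines at 2-fold. DEPDC1 at -2.67 lies near the lower edge of all genes, DEPDC1B at -0.95 and TNFAIP3 at -0.97 lie just inside the 2-fold line, and ZNF224 at 0.22 lies within the central band.

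The genes nearest to each member in the plane of the 2 arrays were found by Euclidean distance of their log2 values, a likeness that rests on 2 arrays alone and uses levels of different probe sets, which are not comparable as amounts. Nearest to DEPDC1 were SCML2, a Polycomb protein gene (difference -2.71), ANKRD46 (-2.13) and SLC38A3, a glutamine transporter gene (-1.93). The distance to SCML2 was 0.294. Nearest to DEPDC1B were NOC3L (-0.88), FAXDC2 (-1.06) and AGMAT (-0.89), at distances of up to 0.101. Nearest to ZNF224 were SELENBP1 (0.21), VSIG10L (0.24) and DCAF4 (0.23), all within 0.0174. Nearest to TNFAIP3 were UBE2NL (-0.85), AQP11 (-0.99) and SERPINA6 (-1.10), the gene of corticosteroid-binding globulin, at distances of up to 0.127. UBE2NL is a near-identical copy of UBE2N, a gene of the A20 pathway described below, and their probe sets can share signal.

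The protein-coding genes next to each member were read by position, a choice added after the member values were known. On chromosome 1, RPE65 and LRRC7 beside DEPDC1 were under the detection threshold in both arrays. On chromosome 5, PDE4D and ELOVL7 beside DEPDC1B differed by -0.23 and -0.51. On chromosome 6, OLIG3 beside TNFAIP3 was under the threshold in both arrays and PERP differed by 0.17. None of these neighbours differed by as much as the member they flank. Those of ZNF224, described below with its cluster, were measured further from 0 than ZNF224 itself.

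Among the genes with a DEP domain and the GATOR complexes, which control mTORC1 and include the DEP protein DEPDC5, 21 of 28 measured genes were detected. DEPDC1 was the only detected gene of this list that passed 2-fold in either direction. DEPDC1B was the only other at least 1.5-fold lower. Without these 2 genes the median difference of the remaining 19 was 0.07, against 0.00 over all detected genes. SEC13, a subunit shared by GATOR and the nuclear pore, had the largest difference above 0, at 0.51 (8.89 in NC and 9.40 in siRNA). NPRL3, a GATOR subunit, followed with 0.44 (6.10 and 6.54). DEPDC5 and DEPTOR, a DEP protein that inhibits mTOR, had -0.0058 and -0.0042, both named after their values were seen. With DEPDC1 and DEPDC1B included the median was 0.04, and it was -0.09 when only genes reaching the 75th percentile of the arrays were kept.

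The genes around the RhoGAP-like domain of DEPDC1B had a median difference of 0.09, against 0.00 over all detected genes. DEPDC1B is known to bind the receptor phosphatase PTPRF and to act on RHOA as cells loosen their contacts before division. All 23 measured genes were detected and none was 2-fold different. Of the 23, 9 had a lower and 14 a higher value, where 48.1% of all detected genes were lower and 49.9% higher. PTPRF differed most, with 7.21 under NC and 8.21 under the siRNA, which is 0.998 on the log2 scale or 1.997-fold higher. With the arrays centred on their medians it passed 2-fold. RHOC, a small GTPase gene, differed by 0.44 (8.07 and 8.52). RHOA itself had 10.64 in NC and 10.88 in siRNA, a difference of 0.23, named after its value was seen. ARHGAP11A, a mitotic RhoGAP, differed in the other direction, by -0.61 (7.38 and 6.76).

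Genes of G2 and mitosis, the phase in which DEPDC1 and DEPDC1B are expressed, had mostly lower values. All 59 measured genes of this list were detected, and 51 were lower and 8 higher, where 48.1% of all detected genes were lower. Their median difference was -0.28, against 0.00 over all detected genes. The list shared 4 detected genes with the RhoGAP and RHOA list. Past 2-fold lay NUSAP1, the gene of a spindle-associated protein (8.93 and 7.74, difference -1.20), and MKI67, which encodes the proliferation marker Ki-67 (9.51 and 8.45, difference -1.06). PBK, a mitotic kinase gene, differed by -0.77 (8.48 and 7.70) and KIF11, a spindle motor gene, by -0.70 (8.13 and 7.43). At 2-fold these were 2 of 59, against 0.863% of detected genes. At 1.5-fold 7 of the 59 were lower and none higher, against 3.74% and 6.03% of detected genes. The difference of DEPDC1B, -0.95, lay below those of all but NUSAP1 and MKI67, and that of DEPDC1 lay below all 59. HMMR, at 0.32, was the highest of the list, followed by CDC20 at 0.31, both named after their values were seen. Whether fewer cells in G2 and mitosis or less transcript per cell lay behind these values cannot be told apart in bulk RNA.

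The promoters of the same list often held the elements marked in DEPDC1 and DEPDC1B. RefSeq promoters were matched for 52 of the 59 genes. In the 300-base window 42 of these held a CHR (80.8%) and 37 a CCAAT box (71.2%). Over 9152 promoters of detected genes the shares were 15.2% and 36.3%. In the 250 upstream bases alone a CHR was found in 33 of the 52 (63.5%), against 13.7% of the promoters of detected genes. The window past the start thus mattered, as it did for DEPDC1B.

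**Figure D3:**
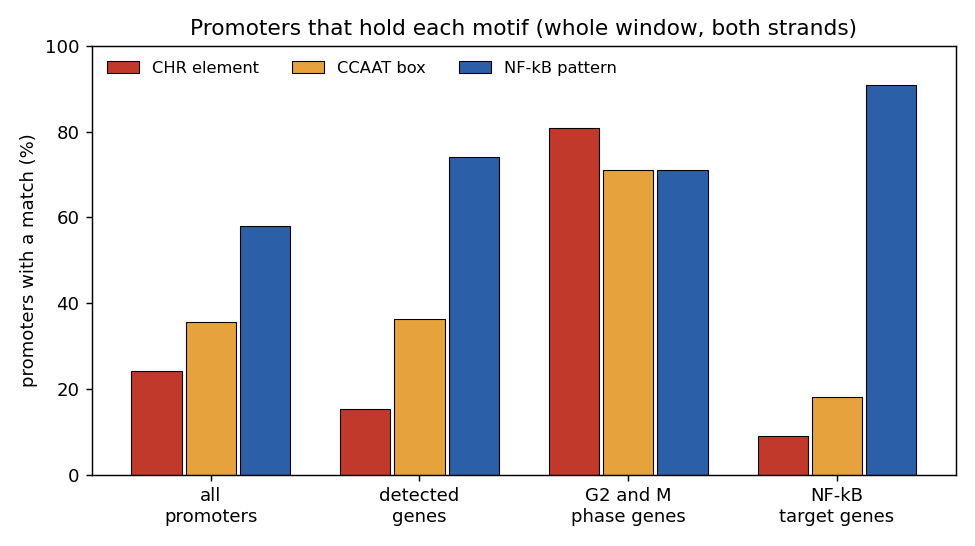
Share of RefSeq promoters (percent, vertical axis) that hold a CHR element, a CCAAT box or the NF-kB pattern in the 300-base window, for all 27305 promoters, the 9152 of detected genes, the 52 of detected G2 and M phase genes and the 22 of detected NF-kB target genes. A CHR was found in 80.8% of the G2 and M phase promoters and in 15.2% of those of detected genes.

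ZNF224 lies on chromosome 19 in a cluster of closely related KRAB zinc finger genes, proteins that bind DNA and recruit the corepressor TRIM28. Of the 17 measured genes of this cluster 15 were detected, and 14 of them had a higher value in the siRNA array, where 49.9% of all detected genes did. Their median difference was 0.35. ZNF225, ZNF230, ZNF285 and ZNF404 reached the threshold only in the siRNA array, so the filter fixed their direction. Over all 17 measured genes, without that filter, 5.88% were lower and the median was 0.35. ZNF224 at 0.22 lay below that median. Its neighbours along the chromosome, ZNF284 and ZNF225, were both higher. ZNF284 differed by 0.59 (5.11 and 5.70). ZNF225 had 4.59 in NC, under the threshold, and 4.94 in siRNA, at least 1.22-fold higher. ZNF227 differed by 0.72 (5.53 and 6.26). ZNF404 had 3.83 in NC, under the threshold, and 4.84 in siRNA, at least 1.13-fold higher against the threshold. ZNF285 likewise had 4.28 in NC, under the threshold, and 4.97 in siRNA, at least 1.24-fold higher. ZNF221 was the 1 detected gene of the cluster with a lower value, -0.38 (5.18 and 4.80), named after its value was seen. These genes are closely related, so their probe sets may share signal and single values are uncertain. Their sequences were not compared here.

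Higher values were also common among detected zinc finger genes elsewhere, a set added after the cluster was seen. Of 324 detected genes named ZNF outside the cluster, 220 or 67.9% were higher, with a median of 0.17. The difference of ZNF224 was close to that median. Here too the filter fixed the direction of any gene that reached the threshold in only a single array. Such genes were not counted among the 324, and the share without the filter was not computed. The share and the median of this set therefore hold for detected genes only.

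**Figure D4:**
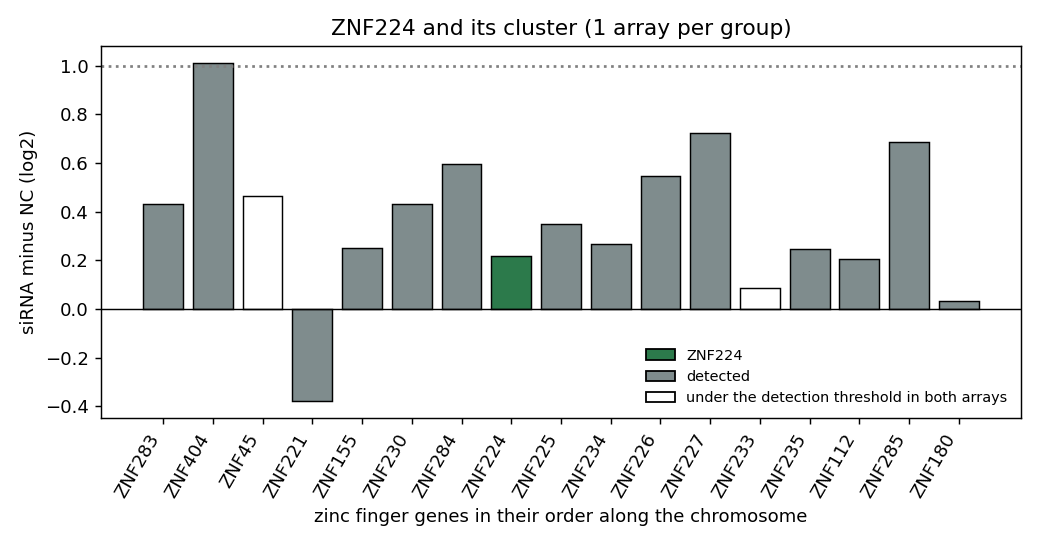
Difference between the siRNA and NC arrays (log2, vertical axis) of the 17 measured zinc finger genes of the ZNF224 cluster, in their order along chromosome 19 and not to distance. ZNF224 (green) at 0.22 stands among neighbours that are mostly higher, ZNF221 at -0.38 is the 1 gene below 0, and open bars are genes under the detection threshold in both arrays.

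Of the corepressors through which KRAB zinc fingers act and the partners of ZNF224, 26 genes were measured and 25 detected. None of these was 2-fold different, and the median was 0.08. Of the 25, 18 were higher and 6 lower, where 49.9% of all detected genes were higher. ZFP90, itself a KRAB zinc finger gene, differed most, by 0.84 (5.24 and 6.09). CHD3, a NuRD helicase gene that KRAB corepression recruits, differed by 0.59 (6.02 and 6.61), HDAC1, a histone deacetylase gene, by 0.48 (8.92 and 9.40), and MTA1, a NuRD subunit gene, by 0.46 (5.83 and 6.30). The next genes were named after their values were seen. TRIM28, the corepressor itself, had 8.20 and 8.29. PRMT5, an arginine methyltransferase known to work with ZNF224, had 7.99 and 8.32. WT1, another known partner of ZNF224, was under the detection threshold in both arrays, with 3.90 and 3.73.

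TNFAIP3 had the second lowest difference in the list of A20 partners and substrates. Of the 28 measured genes of A20 partners, related deubiquitinases and substrates, 23 were detected. Of these, 10 were lower and 13 higher, where 48.1% of all detected genes were lower. Their median difference in the list was 0.09. That median was -0.01 when only genes reaching the 75th percentile of the arrays were kept, a setting that leaves out TNFAIP3. UBE2N was the 1 gene that passed 2-fold in either direction. UBE2N encodes the E2 enzyme that builds K63-linked ubiquitin chains with TRAF6 and that A20 opposes. It measured 7.46 under NC and 5.80 under the siRNA (difference -1.66, 3.16-fold lower), which is uncertain because of its copy UBE2NL. CYLD, a deubiquitinase that like A20 restrains NF-kB, had 5.003 in NC and 4.40, under the threshold, in siRNA, and was at least 1.27-fold lower. As CYLD was detected through the NC array alone, the filter fixed its direction. TNFRSF1A, the TNF receptor gene upstream of A20, differed by 0.36 (6.72 and 7.08). The A20-binding partners TNIP1, TNIP2, TAX1BP1, ITCH and RNF11, named by their role and after their values were seen, lay between -0.31 and 0.26.

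Among NF-kB subunits, their inhibitors and the IKK kinases, 19 of 20 measured genes were detected, none was 2-fold different, and the median was -0.09. REL, an NF-kB subunit gene, differed by -0.93 (7.18 and 6.25), close to the difference of TNFAIP3. CHUK, the IKK alpha kinase gene, differed by -0.58 (7.18 and 6.60). NFKBIE and NFKBIA, inhibitor genes that NF-kB induces, differed by -0.39 (5.45 and 5.06) and -0.37 (8.17 and 7.79). In this list 13 genes were lower and 6 higher, where 48.1% of all detected genes were lower. IKBKG, named after its value was seen, reached the threshold only in the siRNA array, so the filter fixed its direction. Without a detection threshold 70% of the 20 measured genes were lower. The lower share of 68.4% in the list was 57.9% with the arrays centred on their medians. It was 83.3% when only genes reaching the 75th percentile of the arrays were kept.

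TNFAIP3 was near the lower end of the NF-kB target genes, of which 27 of 48 measured genes were detected. Of these, 16 were lower and 11 higher, where 48.1% of all detected genes were lower, and the median was -0.11. CD83, named after its value was seen, reached the threshold only in the NC array, so the filter fixed its direction. Without a detection threshold 56.25% of the 48 measured genes were lower. Without TNFAIP3 the median of the other 26 was -0.07. The target list shared 6 detected genes with the list of NF-kB subunits, inhibitors and IKK kinases, and 2 with the A20 list. The counts of these lists are therefore not independent. C3, the central complement gene, differed by -1.42 (10.15 and 8.73) and CCL20, a chemokine gene, by -1.32 (11.64 and 10.31), and these were the 2 genes at least 2-fold lower. TNFAIP3 came next at -0.97. CXCL5, a neutrophil chemokine gene, was the 1 gene at least 2-fold higher, at 1.65 (6.29 and 7.94). The detected targets thus went both ways, and TNF, IL6 and IL1B, named after their values were seen, were under the detection threshold in both arrays.

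The promoter of TNFAIP3 printed above held a pair of NF-kB pattern matches on the strand opposite to the gene, beginning 67 and 55 bases before the start. Read on that strand they are GGGACTTTCC and GGGGATTTCC. These exact letters occurred in the upstream bases of 50 and 26 of 27305 promoters, and TNFAIP3 was the 1 promoter with both, which is a description since the letters were read from it. The wide pattern itself marks little, as 70.1% of the upstream stretches of detected genes held it. It was found in DEPDC1B and ZNF224 too and not in DEPDC1. The letters in this window say nothing of whether a factor bound there.

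**Figure D5:**
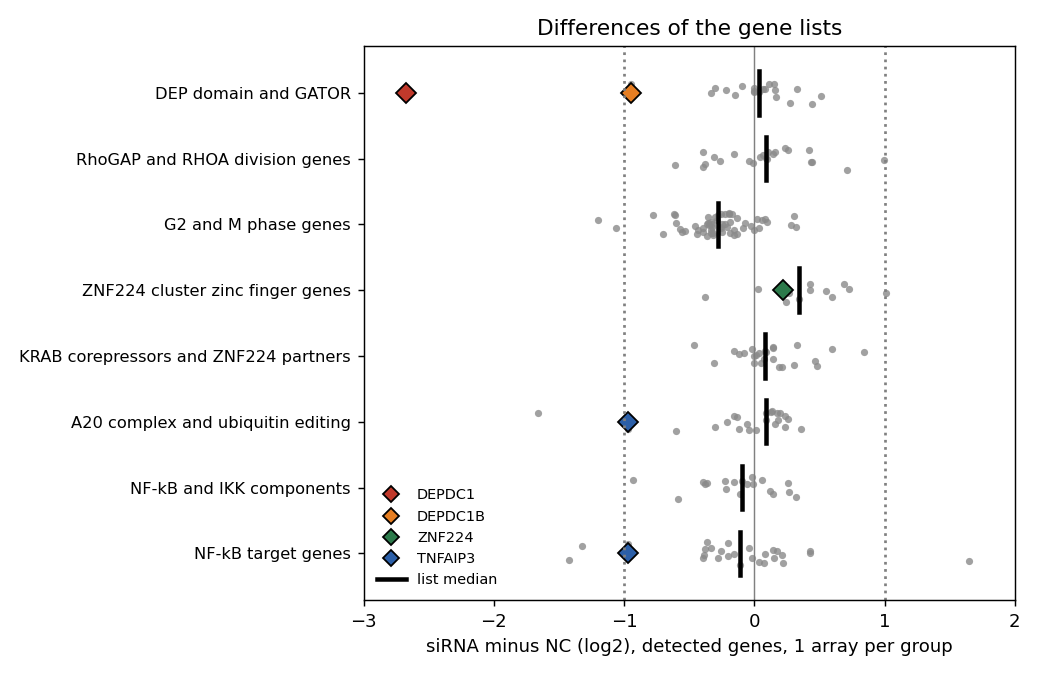
Differences between the siRNA and NC arrays (log2, horizontal axis) of the detected genes of 8 gene lists (grey points), with each list's median as a black bar, the 4 members as diamonds and dotted lines at 2-fold. The G2 and M phase genes are centred at -0.28 and the ZNF224 cluster at 0.35, and the other medians lie between -0.11 and 0.09.

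Over the arrays as a whole, the median difference of detected genes was 0.00 with quartiles of -0.18 and 0.21, and the arrays correlated with a Pearson's r of 0.989 across probe sets, which do not serve as replicates. The cells carried hepatoma markers, with 17 of 18 measured genes detected. In the siRNA array 13 of these 17 were lower, where 48.1% of all detected genes were. AHSG reached the threshold only in the NC array, so the filter fixed its direction. The unlogged values of all 18 summed to 14604 in the siRNA array against 19663 in the NC array. Of the fibroblast and stellate cell markers 7 of 14 were detected, 6 of them higher, where 49.9% of all detected genes were. The unlogged sum over all 14 was 1616 in the siRNA array against 577 in the NC array. LUM (7.64 and 9.95), FBN1 (5.79 and 7.98) and COL1A2 (5.43 and 6.50) passed 2-fold, the other 4 detected markers lay between -0.04 and 0.11, and DCN, POSTN, THY1 and ACTA2 were under the threshold in both arrays. Endothelial, leukocyte and squamous markers were detected for 2 of 12, 3 of 14 and 3 of 6 measured genes. Among the detected ones LYZ, a leukocyte marker, passed 2-fold (4.85 in NC and 6.05 in siRNA). CD14 (6.83 and 7.10) and SFN (6.92 and 7.43) were also higher. DSC3 had 3.90 in NC, under the threshold, and 4.89 in siRNA. NKG7, CLDN5, EGFL7 and KRT14 were lower. PTPRC, PECAM1, CDH5 and KRT5 were under the threshold in both arrays. The part of these marker differences in the values of the 4 genes was not tested.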

How the data were processed

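The deposited table held 33297 probe sets with a value for each array. Affymetrix Expression Console and Transcriptome Analysis Console 3.0 are named per the submitters' processing notes; their role, the background correction and the normalization are not given in the sources used here. The deposited values ran from 1.39 to 12.7 and were taken as log2 expression normalized by the authors, since the sorted columns differed by at most 0.0997. Depth has no meaning for arrays, and their number limits the precision. Gene names came from GEO's platform annotation of the probe sets (1 gene for 19460, several for 1754, none listed for 12083). For 19429 of the 19460 the Entrez identifier was found in RefSeq and the symbol was taken from there. For genes with several probe sets the one with the highest mean was used. Differences are siRNA minus NC, computed with Python 3.11.15 and pandas 2.3.3, and the counting was tested on simulated data. With 1 array per group no test was possible.

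The members and gene lists were chosen with earlier results of these data known. Genes were named by rule: the 4 members, up to 4 detected genes with the largest absolute difference from each pathway list and the 3 detected genes nearest to each member. Others are marked in the text, except marker and position choices, and 1 gene that the rule picks from the RhoGAP and RHOA list is not reported here. Promoters came from RefSeq (GRCh38.p14), and all 4 members matched. Protein sequences were not used here. The alternatives covered scaling, probe set choice, detection threshold and fold.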

Additional observations from a re-analysis of the deposited data

How the results depend on the processing

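Across 9 alternatives, 1 of them chosen after seeing the data, the differences of the 4 genes kept their direction and their side of 2-fold wherever they were recomputed: DEPDC1 ranged from -2.67 to -2.64, DEPDC1B from -0.96 to -0.92, TNFAIP3 from -0.97 to -0.94 and ZNF224 from 0.22 to 0.25. Averaging the probe sets of a gene and raising low values to the threshold could not move these differences. Each of the 4 genes had 1 probe set, and its values lay above the main threshold in both arrays. The added alternative had a threshold of 5.18, and low values were not raised to it. The TNFAIP3 value in the siRNA array, 4.66, and the ZNF224 value in the NC array, 5.14, lay below that threshold. Only centring and quantile normalization of the arrays could change them. Among all 18417 genes without a detection threshold, 81.8% had a lower difference than ZNF224. With only genes reaching the 75th percentile of the arrays, 137 genes were at least 2-fold higher, the median of the DEP domain and GATOR list was -0.092 and that of the A20 list -0.013, with fewer genes tested; ZNF224 and TNFAIP3 fell outside that threshold and the ZNF224 cluster had too few genes for a median. With a fold of 1.5 in place of 2, 424 genes were lower and 685 higher. No paired analysis was possible because each group had 1 array, and no replicate could be left out. TNFAIP3 and ZNF224 lay near the detection threshold, where signal over background limits the precision.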
